A study of Arabidopsis thaliana with 4 samples.

Results

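Cytochrome P450 monooxygenases (P450s), glutathione transferases (GSTs) and aldehyde dehydrogenases (ALDHs) are 3 enzyme families of plant secondary metabolism and detoxification, and their transcripts were compared between seedlings of the Arabidopsis *aln-1* mutant and the wild type (WT). Members were all probe sets of the array that the platform annotation lists with exactly 1 gene and whose gene symbol begins with *CYP* followed by 2 or 3 digits and a letter, with *GSTU*, *GSTF*, *GSTL*, *GSTZ* or *GSTT*, or with *ALDH*. This rule found 44 genes, each with 1 probe set, among them 23 of 236 P450 genes, 13 of 47 GST genes and 8 of 14 ALDH genes that carry such a symbol in the gene table. *CYP79A2* and *CYP71B31* did not have a value on every array, which left 42 members among the 21754 genes and probe sets tested. A gene counts as measured here only where a probe set with values is listed with that gene alone. The annotation lists no gene for 8730 probe sets, so other genes of these families may be on the array unnamed. The measured P450s were mostly of a single subfamily, since 18 of the 21 were *CYP71B* genes, and 11 of the 13 GSTs were of the tau class (*GSTU*).

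Both genotypes were in the Col-0 background. The *aln-1* line carries a T-DNA insertion in *ALLANTOINASE* (*ALN*), whose product hydrolyses allantoin in the breakdown of purines, and it was represented by 2 arrays of the single line, against 2 arrays of WT. All seedlings were grown aseptically without treatment on medium with 1% sucrose under 16 h light and 8 h dark, and the aerial parts were collected after 2 weeks. No source states that the 2 arrays of a genotype came from separate cultures, and the p-values therefore reflect only how far these arrays differed, which may include technical spread alone.

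P450s insert an oxygen atom into their substrates, and single members act in the synthesis of hormones, sterols, phenylpropanoids, glucosinolates and defence compounds. GSTs join the tripeptide glutathione to reactive compounds, which then pass into the vacuole. Tau class genes are known for their induction by xenobiotics and by reactive oxylipins. ALDHs oxidize aldehydes to acids, both in metabolic pathways and in the removal of aldehydes that build up under drought or salt stress. *CYP71B* genes lie in tandem clusters, and for most of them no substrate is established.

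Every value below is a normalized value as the authors deposited it, on a log-like scale whose base the sources used here do not name. Differences between genotypes are therefore given in deposited units and not as fold changes. As a yardstick, the SD over all genes on an array lay between 0.620 and 0.657, and the values ran from -1.01 to 3.08. *ALN* was measured at -0.0466 and 0.00508 in *aln-1*, against 0.367 and 0.442 in WT, a difference of -0.425 (standard error 0.0505, adjusted p = 0.0116, limma). Without WT replicate 1 or WT replicate 2 its adjusted p was 0.0845 or 0.0726. Across genes, r was 0.981 for the pair of *aln-1* arrays, 0.987 for the WT pair and 0.901 to 0.947 for arrays of different genotypes. Of 22 leaf markers only *RCA*, which encodes Rubisco activase, could be named on the array, and it was close to the top of the scale at 2.52 and 2.39 in *aln-1*, against 2.77 and 2.72 in WT (difference -0.292, adjusted p = 0.039). Of 21 root markers 3 were measured. The root hair gene *EXPA7* rose by 0.250 (adjusted p = 0.0431), *EXPA18* differed by 0.236 (adjusted p = 0.0918), and *PYK10*, a beta-glucosidase gene of roots and hypocotyls, had 2.67 and 2.73 in *aln-1*, against 2.65 and 2.66 in WT. *PYK10* was thus also close to the top of the scale. Its mean had 99.9% of genes below it in *aln-1* and 99.8% in WT, and that of *RCA* 99.6% and 99.9%. The part of root tissue in the results on the members was not tested, and in whole aerial parts fewer cells of a type and less RNA per cell cannot be told apart. No seed, pollen or flower marker of the lists used had a named probe set.

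The *aln-1* seedlings had altered transcript levels of members of all 3 families, with more falls than rises among the P450s. At an adjusted p under 0.05, 12 of the 42 members fell in *aln-1* (28.6%), where 8.17% of all genes and probe sets tested did so. In the other direction 5 members were higher (11.9%), beside 7.42% of all. Both directions together gave 17 members (40.5%), beside 15.6% of all. The *CYP71B* genes held 7 of the 12 falls and 1 of the 5 rises. The other P450s held 1 fall and 1 rise, the GSTs 3 falls and 1 rise, and the ALDHs 1 fall and 2 rises. The largest falls were those of *CYP71B24*, *CYP71B23*, *GSTU27* and *GSTU20*, with differences between -0.912 and -0.792, and the largest rise was that of *GSTU26*. The arrays of the genotypes did not overlap for 31 members (73.8%), 11 of them higher and 20 lower in *aln-1*, but this is a loose criterion with 2 arrays each, since 66.8% of all genes met it, 25.4% in the higher and 41.4% in the lower direction. The median difference was -0.0783 over the members and -0.0320 over all genes. The calls depended on both WT arrays. Without WT replicate 1 only *CYP71B23* passed among the members, and without WT replicate 2 only *CYP71B23*, *CYP78A9* and *GSTU27* passed, with 0.607% and 2.50% of all genes called in these fits, while all 17 called members kept their direction in each of the 4 fits that left out 1 array.

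**Figure D1:**
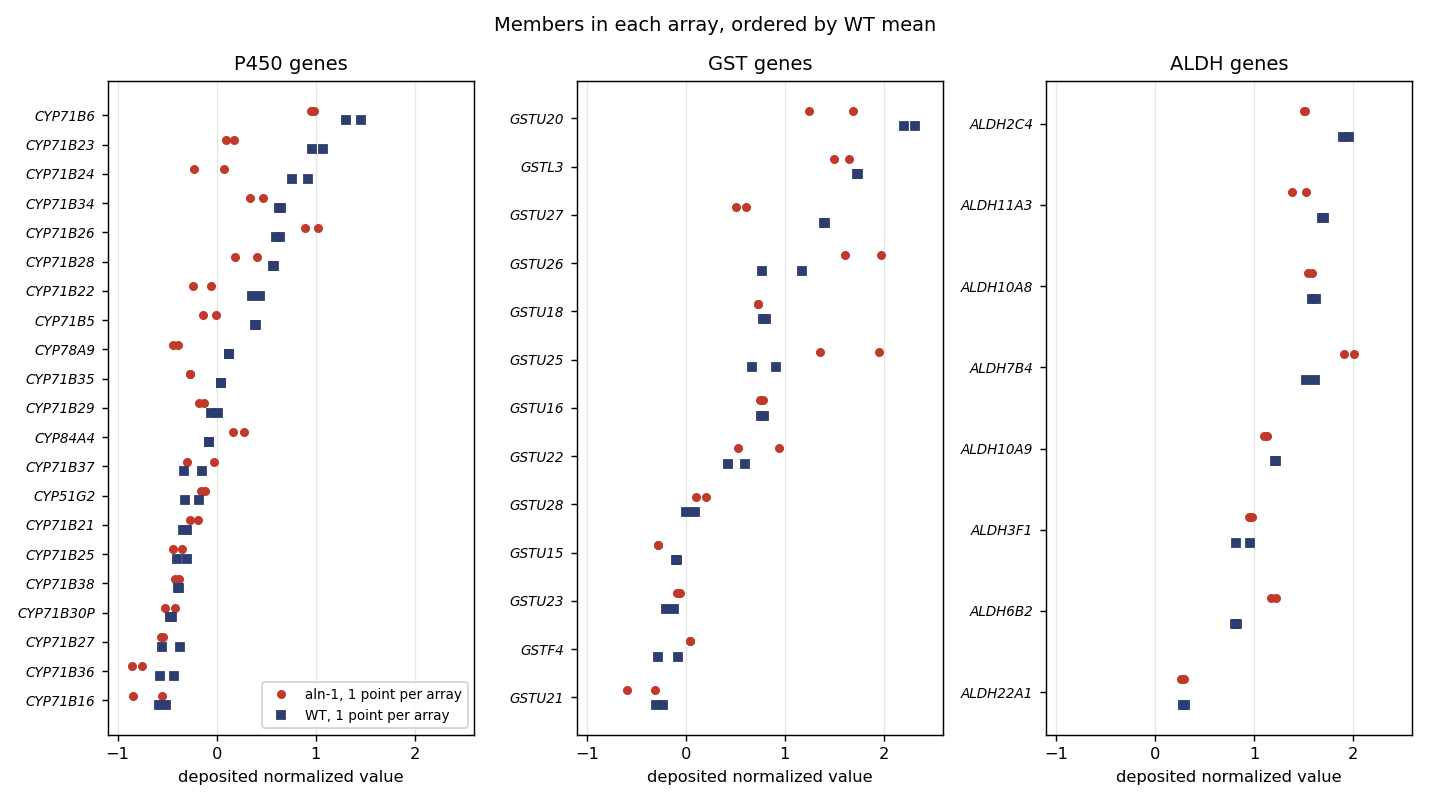
Deposited normalized values (x axis, log-like units) of the 42 members, 1 point per array, with *aln-1* (circles) drawn above WT (squares) for each gene and genes ordered by their WT mean within each family. The points of *CYP71B23*, *CYP71B24*, *GSTU27* and *GSTU20* lie well to the left in *aln-1*, those of *GSTU25* and *GSTU26* to the right, and the *aln-1* points of *GSTU20*, *GSTU22*, *GSTU25* and *GSTU26* are far apart.

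Large differences were found for a greater share of the members than of all genes. The median absolute difference was 0.223 over the members and 0.0992 over all genes and probe sets tested, and 13 members differed by less than 0.1. An absolute difference of at least 0.5 was found for 8 members (19.0%), beside 4.71% of all genes and probe sets tested, and one of at least 0.25 for 18 members (42.9%), beside 17.6% of all. By family, a difference of at least 0.5 was found for 4 P450s and 4 GSTs, all 4 of the tau class, and for no ALDH. The 6 members with the largest changes, between 0.792 and 0.912 in size, ranked among the 104 largest falls or the 164 largest rises of the whole array. Signal strength differed by family, since the median P450 had 38.5% of all WT signals below it, the median GST 79.8% and the median ALDH 93.6%. When only the 14502 genes and probe sets of highest mean were tested, 28 members remained, of which 16 were called, beside 23.0% of all genes in that fit.

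**Figure D2:**
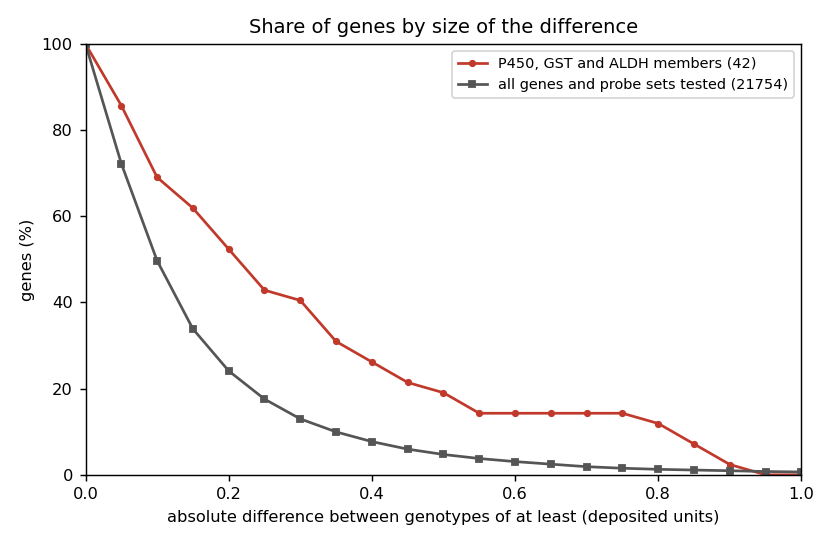
Percentage of genes (y axis) whose absolute difference between *aln-1* and WT was at least the size on the x axis (deposited units), for the 42 members and for all 21754 genes and probe sets tested. The curve of the members lies above that of all genes up to 0.9, with 19.0% against 4.71% at 0.5, and no member reached 0.95.

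Among the P450s, 8 of 21 fell in *aln-1* (38.1%), 2 rose (9.52%) and 11 did not pass the test, with a median difference of -0.153. Of all genes and probe sets tested, 8.17% were lower and 7.42% higher. Of the 18 *CYP71B* genes, 7 fell, 1 rose and 10 did not pass. The difference was negative for 15 of the 18 (83.3%), beside 60.1% of all genes and probe sets tested. After centring or quantile normalization of the arrays it was negative for 13, and the share over all genes was not computed there. *CYP71B23* (AT3G26210) had values of 0.169 and 0.0919 in *aln-1*, against 1.08 and 0.963 in WT. Both mutant arrays were thus far below both WT arrays, with a difference of -0.889 (standard error 0.0600, adjusted p = 0.00438, limma), and this was the only member called in all 4 fits with 1 array left out. *CYP71B24* (AT3G26230) had values of 0.0728 and -0.225 in *aln-1*, against 0.916 and 0.755 in WT. Its difference was -0.912 (standard error 0.114, adjusted p = 0.0128), and the gap between the 2 mutant arrays, 0.298, was wider than for 96.5% of genes. In WT the signals of *CYP71B23* and *CYP71B24* were brighter than those of 87.3% and 81.9% of all genes, and in *aln-1* than those of 48.6% and 36.6%. These percentages rank signals on the array, which also depend on the probes.

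*CYP71B23* and *CYP71B24* lie on chromosome 3 with *CYP71B3* between them, inside a run of 25 genes from *CYP71B16* to *CYP71B37*, 18 of which are *CYP71B* genes by symbol. Of this run, 11 genes were measured here, all of them *CYP71B*, and *CYP71B3* was not analysed here. On one side the next gene is *CYP71B22* (AT3G26200), with -0.0611 and -0.237 in *aln-1*, against 0.437 and 0.353 in WT. It fell together with the pair, by 0.544 (standard error 0.0739, adjusted p = 0.0151), so that 3 successive measured genes of the run all fell. One gene further out, *CYP71B21* had -0.271 and -0.185 in *aln-1*, against -0.339 and -0.302 in WT, a difference of 0.0923 whose 95% interval ran from -0.0379 to 0.223 (adjusted p = 0.259). The first gene of the run, *CYP71B16*, was near the bottom of the scale, where only 0.57% of genes in *aln-1* and 2.01% in WT had lower signals. It had -0.845 and -0.557 in *aln-1*, against -0.511 and -0.586 in WT, and its arrays overlapped.

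On the other side of the pair the picture was mixed. *CYP71B25* was low in both genotypes, with -0.444 and -0.349 in *aln-1*, against -0.304 and -0.403 in WT (95% interval of the difference -0.196 to 0.109). *CYP71B26* (AT3G26290) was the only *CYP71B* gene that rose. Its values were 0.894 and 1.02 in *aln-1*, against 0.594 and 0.640 in WT, a difference of 0.340 (standard error 0.0594, adjusted p = 0.0253). Further along the run the direction turned again. *CYP71B34* had 0.469 and 0.334 in *aln-1*, against 0.633 and 0.649 in WT, a difference of -0.239 that missed the threshold (adjusted p = 0.0555) but passed with a trend in the variance (adjusted p = 0.0478) and without *aln-1* replicate 1 (adjusted p = 0.0248). Its neighbour *CYP71B35* (AT3G26310) had -0.272 on both *aln-1* arrays, against 0.0385 and 0.0454 in WT, and fell by 0.314 (standard error 0.0417, adjusted p = 0.0144). *CYP71B36* (AT3G26320) had -0.857 and -0.753 in *aln-1*, against -0.569 and -0.429 in WT. It passed only just (difference -0.306, adjusted p = 0.0447), and with only 0.0644% of genes below its mean in *aln-1* the size of this fall is uncertain. The call was lost after quantile normalization (difference -0.198, adjusted p = 0.170), after centring (adjusted p = 0.0514), with a trend in the variance (adjusted p = 0.0578) and in all 4 fits with 1 array left out (adjusted p = 0.0636 to 0.177). *CYP71B37*, the last of the run, had -0.303 and -0.0322 in *aln-1*, against -0.330 and -0.149 in WT, with overlapping arrays and a 95% interval of -0.210 to 0.353.

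**Figure D3:**
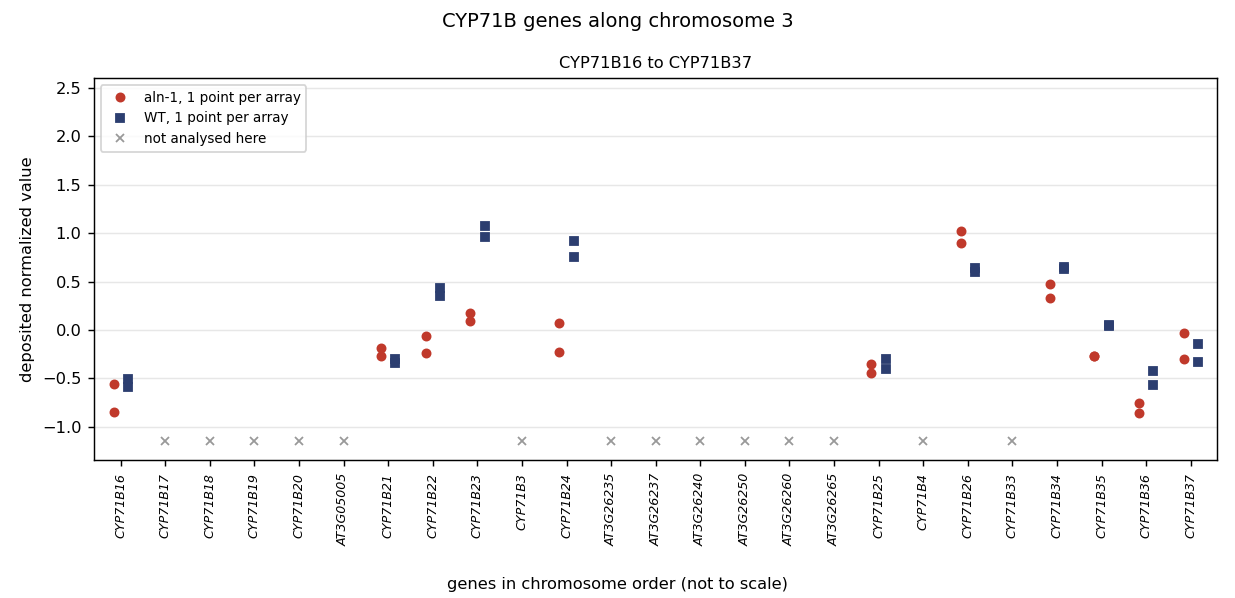
Deposited normalized values (y axis) of the *CYP71B* genes along chromosome 3 in gene order, 1 point per array, *aln-1* (circles) left of WT (squares), with crosses at the bottom for genes not analysed here. *CYP71B22*, *CYP71B23* and *CYP71B24*, and by less *CYP71B34*, *CYP71B35* and *CYP71B36*, are lower in *aln-1*, and *CYP71B26* is higher. *CYP71B16*, *CYP71B21*, *CYP71B25* and *CYP71B37* show overlapping or close arrays.

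Outside this run, *CYP71B* genes elsewhere in the genome included further falls but no rise. *CYP71B5* (AT3G53280), on chromosome 3 next to *CYP71B30P*, had -0.0126 and -0.139 in *aln-1*, against 0.395 and 0.383 in WT, and fell by 0.465 (standard error 0.0576, adjusted p = 0.0127). Its neighbour *CYP71B30P* was near the bottom of the scale and had -0.520 and -0.425 in *aln-1*, against -0.448 and -0.470 in WT. *CYP71B6* (AT2G24180), whose enzyme converts indole-3-acetonitrile, was the only measured gene of 15 listed for camalexin and other indole defence compounds. It had 0.981 and 0.955 in *aln-1*, against 1.46 and 1.302 in WT. The mutant arrays lay below both WT arrays and the difference was -0.412 (standard error 0.0649, adjusted p = 0.0203). A cluster on chromosome 1 held 3 measured genes, none of them called. *CYP71B28* had 0.411 and 0.186 in *aln-1*, against 0.578 and 0.569 in WT (difference -0.275, adjusted p = 0.0808). *CYP71B29* had -0.183 and -0.124 in *aln-1*, against 0.0147 and -0.0625 in WT (difference -0.130, adjusted p = 0.146). *CYP71B27*, a transcribed pseudogene in the gene table, and *CYP71B38*, which lies apart on chromosome 3, had differences of -0.0874 and -0.0161 at low signals.

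The other 3 measured P450s differed in direction. *CYP78A9* (AT3G61880), which belongs to a subfamily that promotes organ growth, had -0.390 and -0.438 in *aln-1*, against 0.126 and 0.128 in WT. It fell by 0.541 (standard error 0.0443, adjusted p = 0.00613), and its mean had 12.8% of genes below it in *aln-1*, against 47.4% in WT. *CYP84A4* (AT5G04330), which acts in the synthesis of arabidopyrones from phenylpropanoid precursors, had 0.165 and 0.277 in *aln-1*, against -0.0834 and -0.0815 in WT. It rose by 0.303 (standard error 0.0545, adjusted p = 0.0269). *CYP51G2*, a relative of the sterol 14-demethylase gene, had a difference of 0.112 that did not pass (95% interval -0.0455 to 0.269). Of the P450 genes known for the breakdown of abscisic acid (ABA), for jasmonate, brassinosteroid, gibberellin or cytokinin metabolism and for carotenoids or cutin, none had a named probe set here, and these pathways were not analysed here.

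Among the GSTs, 3 of 13 fell (23.1%), 1 rose (7.69%) and 9 did not pass, beside 8.17% lower and 7.42% higher of all genes and probe sets tested. The median difference was -0.00744, or 0.0107 after centring of the arrays, so no direction can be given for the family as a whole. Its called genes moved both ways and included some of the largest changes of all members. *GSTU27* (AT3G43800) had 0.608 and 0.506 in *aln-1*, against 1.40 and 1.39 in WT, and fell by 0.842 (standard error 0.0526, adjusted p = 0.00404), the smallest adjusted p of all members. *GSTU20* (AT1G78370), whose product interacts with the jasmonate-amido synthetase FIN219/JAR1, was one of the brightest signals on the WT arrays, above 99.2% of genes. Of 5 genes listed for aliphatic glucosinolate synthesis it was the only one measured. It had 1.69 and 1.24 in *aln-1*, against 2.21 and 2.32 in WT. All mutant values were below the WT values, and the difference was -0.792 (standard error 0.150, adjusted p = 0.0304). *GSTU15* (AT1G59670) fell by 0.192 (standard error 0.0418, adjusted p = 0.0414), with -0.284 and -0.285 in *aln-1*, against -0.0871 and -0.0970 in WT. This call was lost when the arrays were centred on their medians (adjusted p = 0.0528) or quantile normalized (adjusted p = 0.0520).

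The largest positive differences were those of the adjacent genes *GSTU25* (AT1G17180) and *GSTU26* (AT1G17190), where *GSTU25* encodes an enzyme known to detoxify the explosive trinitrotoluene. *GSTU26* had 1.61 and 1.97 in *aln-1*, against 0.766 and 1.17 in WT, a rise of 0.820 (standard error 0.176, adjusted p = 0.0405). *GSTU25* had 1.36 and 1.95 in *aln-1*, against 0.667 and 0.908 in WT. Its difference of 0.867 was the largest positive one of all members, but its standard error of 0.205 left it at the threshold (adjusted p = 0.0501, 95% interval 0.344 to 1.39). Both genes varied more between replicate arrays than nearly all genes. The gap between the *aln-1* arrays was 0.593 for *GSTU25* and 0.365 for *GSTU26*, wider than for 99.7% and 98.1% of genes, and the gap between the WT arrays was 0.241 and 0.408, wider than for 96.9% and 99.3%. *GSTU24*, the next gene beside *GSTU25*, was not analysed here.

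In the run on chromosome 1 that holds *GSTU20*, no other measured gene passed the test. *GSTU21*, the adjacent gene, was dim and had -0.599 and -0.315 in *aln-1*, against -0.297 and -0.235 in WT (difference -0.191, adjusted p = 0.240). *GSTU22*, a gene induced by xenobiotics, had 0.524 and 0.945 in *aln-1*, against 0.425 and 0.597 in WT. Its arrays overlapped, and the 95% interval of its difference ran from -0.155 to 0.602. *GSTU23* had -0.0856 and -0.0558 in *aln-1*, against -0.205 and -0.124 in WT (difference 0.0937, adjusted p = 0.244). Whether the differences of these neighbours departed from that of *GSTU20* was not tested. *GSTU20* and *GSTU22* had gaps of 0.448 and 0.421 between the *aln-1* arrays, so that the 4 members with the widest gaps in *aln-1* were all tau class genes of these 2 runs.

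**Figure D4:**
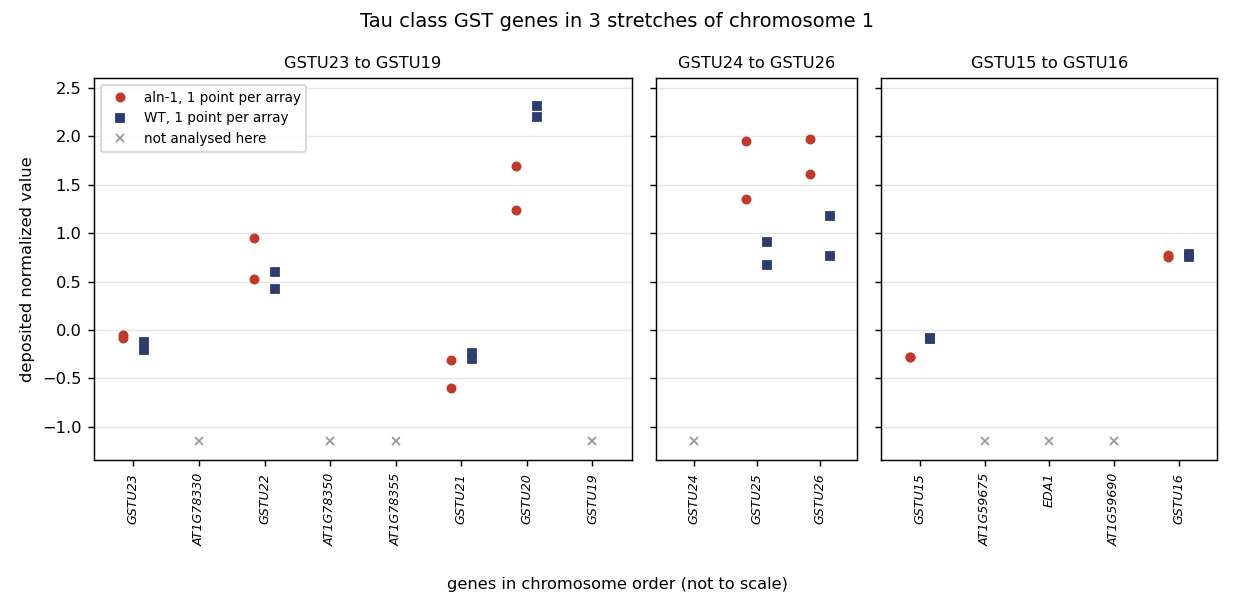
Deposited normalized values (y axis) of tau class GST genes in 3 stretches of chromosome 1 in gene order, 1 point per array, *aln-1* (circles) left of WT (squares), with crosses at the bottom for genes not analysed here. The *aln-1* points of *GSTU20* lie below and those of *GSTU25* and *GSTU26* above the WT points, with wide gaps between replicate arrays, while the points of *GSTU16* coincide.

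None of the remaining GSTs passed the test. *GSTU16* had 0.778 and 0.749 in *aln-1*, against 0.787 and 0.755 in WT, with a 95% interval of -0.119 to 0.105. *GSTU18* had an interval of -0.178 to 0.0392 and *GSTU28* one of -0.0509 to 0.253. *GSTF4*, of the phi class, had 0.0415 and 0.0408 in *aln-1*, against -0.280 and -0.0827 in WT, a difference of 0.222 that did not pass (adjusted p = 0.103). *GSTL3*, of the lambda class, whose enzymes reduce glutathione conjugates rather than form them, had 1.65 and 1.49 in *aln-1*, against 1.73 and 1.74 in WT (difference -0.165, adjusted p = 0.144). Of the genes listed for the supply or transport of glutathione and its conjugates, few had a named probe set. Of 22 genes for synthesis, reduction and use of glutathione, 2 had a named probe set, the glutathione reductases *GR* and *GR1*, and neither passed (differences -0.0673 and -0.0256, adjusted p = 0.344 and 0.753). None of the listed vacuolar conjugate transporters or partners of P450 electron transfer had a named probe set, and they were not analysed here.

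Among the ALDHs, 2 of 8 rose (25.0%), 1 fell (12.5%) and 5 did not pass, beside 7.42% higher and 8.17% lower of all genes and probe sets tested. *ALDH7B4* (AT1G54100), a gene of the antiquitin family that drought, salt and ABA induce, had 1.91 and 2.01 in *aln-1*, against 1.62 and 1.53 in WT. The mutant arrays were both above the WT arrays and the rise was 0.387 (standard error 0.0574, adjusted p = 0.0180). *ALDH6B2* (AT2G14170), which encodes the mitochondrial methylmalonate semialdehyde dehydrogenase of valine breakdown, had 1.23 and 1.17 in *aln-1*, against 0.810 and 0.831 in WT. It rose by a similar 0.378 (standard error 0.0458, adjusted p = 0.0120). *ALDH2C4* (AT3G24503), whose product oxidizes coniferaldehyde and sinapaldehyde to ferulic and sinapic acid, had 1.52 and 1.50 in *aln-1*, against 1.96 and 1.90 in WT. It was the ALDH that fell, by 0.416 (standard error 0.0461, adjusted p = 0.0104).

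*ALDH11A3*, which encodes the non-phosphorylating glyceraldehyde-3-phosphate dehydrogenase of the cytosol, had 1.52 and 1.38 in *aln-1*, against 1.70 and 1.69 in WT. Its difference of -0.243 missed the threshold (adjusted p = 0.0549). The betaine aldehyde dehydrogenase genes *ALDH10A8* and *ALDH10A9*, whose products act on aminoaldehydes, had differences of -0.0372 and -0.0994, with 95% intervals of -0.154 to 0.0797 and -0.209 to 0.0105. *ALDH3F1* had 0.978 and 0.952 in *aln-1*, against 0.820 and 0.963 in WT, and its arrays overlapped. *ALDH22A1* had 0.295 and 0.264 in *aln-1*, against 0.279 and 0.301 in WT, with a 95% interval of -0.121 to 0.101, and the sign of its small difference turned after centring.

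**Figure D5:**
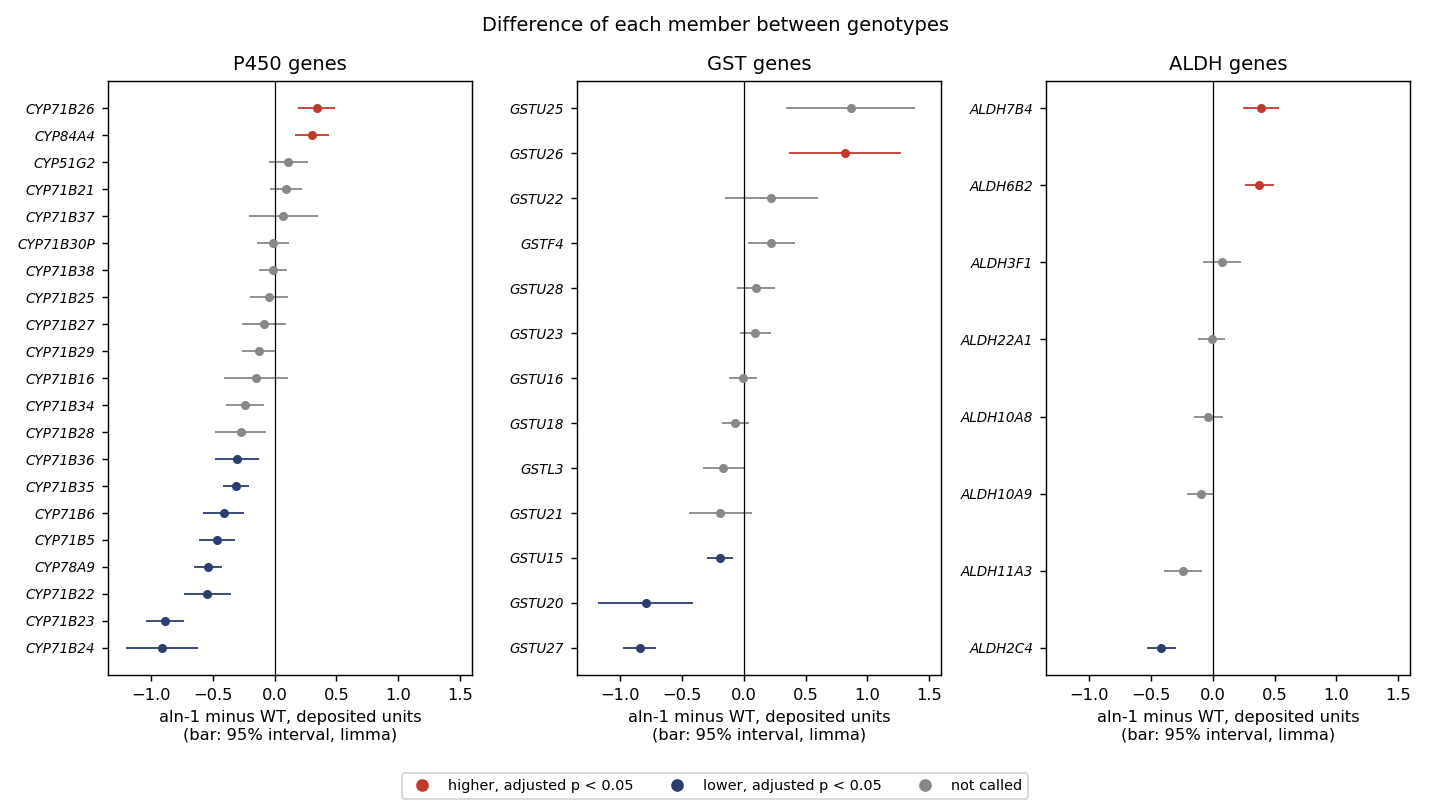
Difference of each member between the genotypes, *aln-1* minus WT (x axis, deposited units), with 95% intervals from limma, ordered from positive to negative within each family and coloured by the call at an adjusted p under 0.05. The P450s hold 8 falls and 2 rises, the GSTs 3 falls and 1 rise and the ALDHs 1 fall and 2 rises, and the intervals of *GSTU20*, *GSTU22*, *GSTU25* and *GSTU26* are the widest.

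Neighbouring members could be compared over 15 pairs, involving 21 genes, that follow each other on a chromosome with at most 2 other genes between them. In 3 pairs both genes were called, and in all 3 both fell, namely *CYP71B22* with *CYP71B23*, *CYP71B23* with *CYP71B24*, and *CYP71B35* with *CYP71B36*, where the call of *CYP71B36* was lost under several settings. In 8 pairs only 1 gene was called and in 4 pairs none. The differences had the same sign in 10 of the 15 pairs. Since 60.1% of all genes and probe sets tested and 66.7% of the members had a negative difference, unrelated genes would also often share a sign. The pairs share genes and lie in few clusters, and related genes of a cluster may contribute to each other's probes, which was not tested, so these counts are a description only.

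The falls included genes of bright signal in WT, namely *GSTU20*, *ALDH2C4*, *GSTU27* and *CYP71B6*, each with over 90% of genes below it, and also *CYP78A9* and *CYP71B35* with 47.4% and 42.2% below them.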

How the data were processed

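Biotinylated RNA (from 250 ng of total RNA) of 4 samples was hybridised to Affymetrix ATH1 arrays in earlier work. The authors normalized them again by SuperNORM, which fits a lognormal distribution of 3 parameters to each array, and deposited 1 score per array for each of 22810 probe sets. The sources used here name no background step, probe summary, version or log base. The deposited table also holds p-values of the authors' two-way ANOVA (genotype and interaction), which were not used. The series' value table held the same scores (largest difference 4.59e-08).

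The 64 control probe sets and 842 others that lacked a value on some or all arrays were left out. The platform annotation listed 13513 probe sets with 1 gene, 503 with several and 8730 with none, and 13436 of the first matched the TAIR10.1 gene table by gene ID, which gave symbols and gene order. Where a gene had more than 1 probe set, that of highest mean stood for it. Every member had 1, none of a class that can detect several transcripts. Genotypes were compared over 21754 genes and probe sets with lmFit and eBayes in limma 3.58.1 (R 4.3.3), with Benjamini-Hochberg adjustment over all of them, and tested on simulated data. The prior had 3.107 degrees of freedom. The methods name a two-way ANOVA but not its second factor, so limma took its place. The number of arrays limits the precision.

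Alternatives were quantile normalization, subtraction of each array's median, a test of the 14502 genes of highest mean alone, a trend in eBayes, averaging over the probe sets of a gene, removal of probe sets of several transcripts, the replicate number as a block, and each array left out. The members, gene lists and tests were chosen with earlier results of these data known. The genes named were *ALN*, the 15 largest called rises and falls with separate arrays, all *CYP71B* and ALDH members, up to 4 members of each role list, and neighbours. The other members are named to account for all of them.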

Additional observations from a re-analysis of the deposited data

How the results depend on the processing

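All 17 called members kept their direction under every alternative that retained them, and the counts of calls changed mainly when an array was left out, where the lone array of a genotype is assumed to vary like the other pair. Those 4 fits called 0 to 7 members higher and 1 to 14 lower in *aln-1*. By family they called 0 to 2 P450s higher and 1 to 9 lower, 0 to 3 GSTs higher and 0 to 3 lower, and 0 to 2 ALDHs higher and 0 to 2 lower. In each of these 4 fits the number of called members moved the same way as the share of all genes and probe sets called. The counts therefore do not describe the members alone. In these fits the *ALN* difference ranged between -0.463 and -0.388, the median over all members between -0.0960 and -0.0513, and that over the P450s between -0.191 and -0.100. The lowest counts came without a WT array, except that no P450 and no GST was higher without *aln-1* replicate 2 either. In that fit 2 members were higher and 10 lower, and *CYP71B26*, *CYP71B36*, *CYP71B6*, *CYP84A4*, *GSTU15* and *GSTU26* were no longer called.

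With the replicate number as a block, 6 members were higher and 12 lower. *GSTU15* was lost (adjusted p = 0.0657, limma), *GSTU26* had an adjusted p of 0.00171, and *GSTU25* (0.00523) and *ALDH11A3* (0.0472) were gained, which made 2 GSTs higher and 2 ALDHs lower. The numbers do not pair the samples by any source, and the replicate 1 deviations of the genotypes correlated at 0.0413 across all genes, but at 0.486 across the 42 members. *GSTU25* was also called, giving 2 GSTs higher, after centring (0.0473), with a trend (0.0450) and among the 14502 genes of highest mean (0.04998). *CYP71B34* was called lower with a trend and among the genes of highest mean (0.0478 in both). After quantile normalization and among the genes of highest mean, 2 ALDHs were lower, and the P450 median was -0.107 and -0.344 in these fits. This filter removed 14 members, among them *CYP71B35*, *CYP71B36*, *CYP78A9* and *GSTU15*. The causes were not tested.

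The sign turned only for members that were never called. After quantile normalization and after centring it was positive for *ALDH22A1* (0.00448 and 0.00827), *CYP71B30P* (0.0382 and 0.00473) and *CYP71B38* (0.0253 and 0.00210), and after centring for *GSTU16* (0.0107). With 1 array left out, differences ranged between -0.0254 and 0.00559 for *ALDH22A1*, -0.0929 and 0.00587 for *CYP71B25*, -0.0610 and 0.0342 for *CYP71B30P*, -0.0640 and 0.207 for *CYP71B37*, -0.0399 and 0.00778 for *CYP71B38*, and -0.0231 and 0.00823 for *GSTU16*.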
